A study of Mus musculus with 8 samples.

Results

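The myelin genes described here are Mbp, Mobp, Mag, Mog, Cnp, Cldn11, Ugt8a, Pllp and Enpp6, 9 of the 23278 genes measured. They were chosen by name, as genes of myelin and of oligodendrocytes that have just begun to myelinate, and all 9 passed the filter on low values, which kept 13948 genes. RNA-seq had been run on 8 libraries of laser-captured lumbar spinal cord from FVB/N mice at postnatal day 1, before the SMA mice show symptoms. SMA stands for spinal muscular atrophy, a disease of motor neurons caused by too little survival motor neuron protein. The 4 groups held 2 libraries each: SMA white matter, WT white matter, SMA motor neurons and WT motor neurons. SMA mice had the genotype SMN2+/+;SMNΔ7+/+;Smn-/-, so they lacked mouse Smn and carried a human SMN2 transgene and a second transgene for SMN without exon 7. The controls are labelled only WT. Captures were cut from hematoxylin-stained frozen sections by position and shape, with no marker gene, so each is a mixture of cells, and the labels do not name the animals behind a library.

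Myelin is the membrane that oligodendrocytes wrap around axons in the central nervous system. Precursor cells leave the cell cycle, pass through a short premyelinating stage in which Enpp6 is switched on, and then make the lipids and proteins of the sheath in large amounts, with Mog among the last to appear. The ventral white matter of the rodent spinal cord is one of the first places where this happens, and around birth the sheaths there are only starting to form. In a bulk capture, fewer cells of a type and less RNA per cell cannot be told apart.

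The promoters of 5 of these genes are shown because all 9 genes were higher in white matter and because these 5 hold letters read by transcription factors of the lineage. MYRF, the factor that switches on myelin genes, binds CTGGCAC or CTGGTAC, and SOX factors such as SOX10 bind ACAAAG or ACAATG. Both strands were searched in RefSeq windows of 300 bases on build GRCm38.p6, from 250 bases before to 50 after the transcript start, and 8 of the 9 genes had a window. Mbp is named only. Matches are in capitals, in the letters of the gene's own strand, 5′ to 3′, and none overlapped another. The windows are Mag at chr7:30914814-30915113 on the minus strand, Mog at chr17:37023349-37023648 on the minus strand, Cnp at chr11:100574689-100574988 on the plus strand, Mobp at chr9:120149492-120149791 on the plus strand and Enpp6 at chr8:46986637-46986936 on the plus strand.
Mag: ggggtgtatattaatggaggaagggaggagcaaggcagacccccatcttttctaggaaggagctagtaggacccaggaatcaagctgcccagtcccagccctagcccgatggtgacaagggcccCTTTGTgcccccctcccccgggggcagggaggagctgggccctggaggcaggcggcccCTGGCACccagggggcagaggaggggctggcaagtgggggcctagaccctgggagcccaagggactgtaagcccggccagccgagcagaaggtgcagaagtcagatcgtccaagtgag
Mog: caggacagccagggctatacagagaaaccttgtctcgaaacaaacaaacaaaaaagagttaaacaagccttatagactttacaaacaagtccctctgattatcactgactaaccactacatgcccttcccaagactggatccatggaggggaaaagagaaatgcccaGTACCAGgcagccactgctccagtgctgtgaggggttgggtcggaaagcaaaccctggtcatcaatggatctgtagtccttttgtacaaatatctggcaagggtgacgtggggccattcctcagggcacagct
Cnp: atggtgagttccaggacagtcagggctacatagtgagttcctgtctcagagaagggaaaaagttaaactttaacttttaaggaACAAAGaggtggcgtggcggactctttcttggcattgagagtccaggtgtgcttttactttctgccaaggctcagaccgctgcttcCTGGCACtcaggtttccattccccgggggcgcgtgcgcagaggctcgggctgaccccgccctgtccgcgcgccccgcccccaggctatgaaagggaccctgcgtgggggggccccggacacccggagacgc
Mobp: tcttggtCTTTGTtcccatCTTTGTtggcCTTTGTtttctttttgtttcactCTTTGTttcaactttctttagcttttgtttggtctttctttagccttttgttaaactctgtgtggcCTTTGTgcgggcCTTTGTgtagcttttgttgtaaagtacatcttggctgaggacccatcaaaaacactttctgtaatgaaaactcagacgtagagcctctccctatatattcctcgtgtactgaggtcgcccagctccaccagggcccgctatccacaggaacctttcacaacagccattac
Enpp6: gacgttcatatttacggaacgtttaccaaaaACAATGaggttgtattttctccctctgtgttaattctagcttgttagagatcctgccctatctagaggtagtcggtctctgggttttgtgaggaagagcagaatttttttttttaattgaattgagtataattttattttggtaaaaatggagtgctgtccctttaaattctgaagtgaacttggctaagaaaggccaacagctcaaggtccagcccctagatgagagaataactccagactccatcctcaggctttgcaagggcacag
The MYRF letters stood in the windows of 3 of the 8 genes, Mag, Mog and Cnp, against 8.1% of 27025 genes with a window. They began 68 bases before the start in Mag, 83 bases before it in Mog and 81 bases before it in Cnp. The SOX letters stood in 4 of the 8, Mag, Mobp, Cnp and Enpp6, against 31.7% of all genes with a window. Mobp held 6 copies of them. Mag has further RefSeq starts, and the window shown is 1 of 3. Measured from another of these starts, the same MYRF letters of Mag began at -9 bases, and the remaining window held neither motif. The distance given for Mag thus depends on the start chosen. Cldn11, Ugt8a and Pllp held neither motif in this window. A match is only a run of letters, and binding was not measured.

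The deposited values are RPKM, reads per kilobase of gene scaled to library size, so levels can be set side by side between genes. The values corresponded to 77.5 to 102.8 M reads per library, and Rn45s, the ribosomal RNA precursor, took 19.4 to 33.4% of the RPKM sum. Smn1, the targeted gene, was listed at 0 in all 4 SMA libraries, against 5.30 and 14.3 RPKM in WT white matter and 6.82 and 2.93 RPKM in WT motor neurons. The motor neuron markers Chat, Isl1, Mnx1 and Slc18a3 were each higher in all 4 motor neuron captures than in all 4 white matter captures. Chat, for example, was at 11.8 to 25.0 RPKM in motor neurons and at 0.905 RPKM or less in white matter. White matter captures also held astrocytes and microglia, with Gfap at 146 to 238 RPKM and C1qa at 15.7 to 16.8 RPKM. Xist, the RNA of the inactive X chromosome, spanned 12.6 to 37.0 RPKM over the 4 libraries numbered 1 and stayed at or under 0.0581 RPKM in those numbered 2, so sex moved with the replicate number and not with genotype or region. p-values therefore measure only the spread between these libraries.

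In white matter the 9 genes together made up 1.41 and 0.788% of the RPKM sum without Rn45s in the SMA libraries and 1.42 and 0.753% in the WT libraries. In motor neuron captures their share was 0.0358 and 0.0297% in SMA and 0.0208 and 0.015% in WT. Mbp alone gave 56.6 to 65.3% of the summed RPKM of the 9 genes in white matter. All 9 genes were higher in white matter than in motor neurons in SMA and in WT mice (limma with Benjamini-Hochberg adjustment, 9 of 9 past 0.05 in each). Of all genes tested, 17.2% were called higher in white matter in SMA and 9.85% in WT. The median difference over the 9 genes was 4.71 in SMA and 4.93 in WT on the log2(RPKM + 1) scale, against 0.235 and -0.0791 over all genes tested. This scale understates the difference of genes near 0, and the 2 region comparisons use different libraries.

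**Figure D1:**
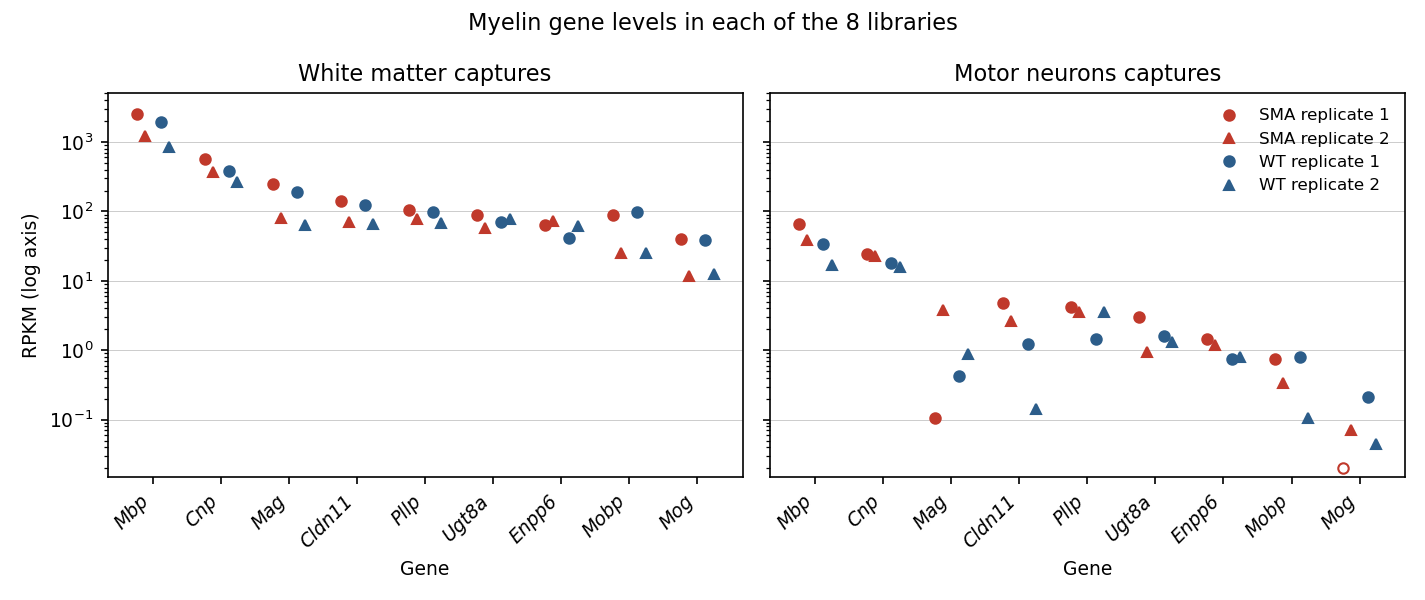
RPKM of the 9 myelin genes in each library, on a log axis, with white matter captures on the left and motor neuron captures on the right; red marks SMA, blue WT, circles replicate 1 and triangles replicate 2. Mbp lies between 840.2 and 2506 RPKM in white matter and between 17.0 and 66.6 RPKM in motor neurons; the open circle is Mog in SMA motor neuron replicate 1, listed at 0 and drawn at the foot of the axis.

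Mbp and Mobp encode the basic proteins that hold the cytoplasmic faces of compact myelin together. Mbp was at 2506 and 1222 RPKM in SMA white matter, 1959.5 and 840.2 RPKM in WT white matter, 66.6 and 39.3 RPKM in SMA motor neurons and 33.8 and 17.0 RPKM in WT motor neurons. It ranked between the 6th and the 14th of all genes in the 4 white matter libraries, and between the 758th and the 3103rd in the 4 motor neuron libraries. Its white matter minus motor neuron difference was 5.07 ± 0.49 in SMA and 5.68 ± 0.49 in WT (log2 scale, SE; limma adjusted p = 0.000159 and 6.6e-05). The Mbp gene also gives rise to golli transcripts, which cells other than oligodendrocytes can make, and a value per gene does not separate them. Mobp was at 88.1 and 25.3 RPKM in SMA white matter, 98.1 and 25.1 RPKM in WT white matter, 0.741 and 0.333 RPKM in SMA motor neurons and 0.802 and 0.105 RPKM in WT motor neurons. Within each genotype its white matter libraries differed more than the genotypes did. The region difference of Mobp was 4.99 ± 0.68 in SMA and 5.17 ± 0.68 in WT (log2 scale, SE; limma adjusted p = 0.000876 and 0.000572).

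Mag and Mog encode adhesion proteins of the immunoglobulin superfamily, Mag on the membrane that faces the axon and Mog on the outer surface of the sheath. Mag was at 247 and 81.5 RPKM in SMA white matter, 188 and 64.2 RPKM in WT white matter, 0.106 and 3.82 RPKM in SMA motor neurons and 0.425 and 0.893 RPKM in WT motor neurons. The 2 SMA motor neuron libraries held its lowest and its highest motor neuron value (21 and 764 reads). The region difference of Mag was 5.95 ± 0.75 in SMA and 6.08 ± 0.75 in WT (log2 scale, SE; limma adjusted p = 0.000571 and 0.000405). Mog was the lowest of the 9 in white matter by group mean, at 40.6 and 11.8 RPKM in SMA and 38.6 and 12.7 RPKM in WT. In motor neurons it was all but missing, with 0 and 10 reads in SMA and 33 and 6 reads in WT. In RPKM these were 0 and 0.0711 in SMA and 0.212 and 0.0453 in WT, and a count of 0 allows up to 3 reads, or 0.0215 RPKM, for counting error only. The region difference of Mog was 4.48 ± 0.61 in SMA and 4.37 ± 0.61 in WT (log2 scale, SE; limma adjusted p = 0.000821 and 0.000736).

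Cnp encodes a cyclic nucleotide phosphodiesterase that keeps cytoplasmic channels through the sheath open, and Cldn11 encodes the claudin of the tight junctions between myelin layers. Cnp was at 562 and 368 RPKM in SMA white matter, 385 and 266 RPKM in WT white matter, 24.7 and 23.2 RPKM in SMA motor neurons and 18.2 and 15.8 RPKM in WT motor neurons. It was the second most abundant of the 9 in both regions, and kept the largest share of its white matter level in motor neuron captures, 5.15% in SMA and 5.21% in WT by group means. Its region difference was 4.19 ± 0.28 in SMA and 4.16 ± 0.28 in WT (log2 scale, SE; limma adjusted p = 3.89e-05 and 1.83e-05). Cldn11 was at 143 and 71.2 RPKM in SMA white matter, 124 and 66.7 RPKM in WT white matter, 4.78 and 2.60 RPKM in SMA motor neurons and 1.23 and 0.145 RPKM in WT motor neurons. Its motor neuron level was thus 3.44% of the white matter level in SMA and 0.722% in WT by group means. The region difference of Cldn11 was 4.48 ± 0.48 in SMA and 5.85 ± 0.48 in WT (log2 scale, SE; limma adjusted p = 0.000257 and 4.9e-05).

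Ugt8a and Pllp serve the sheath membrane itself. Ugt8a encodes the transferase that makes galactosylceramide, the main glycolipid of myelin, and Pllp encodes plasmolipin, a small membrane protein with several transmembrane segments. Ugt8a was at 89.8 and 57.9 RPKM in SMA white matter, 69.6 and 78.0 RPKM in WT white matter, 3.01 and 0.948 RPKM in SMA motor neurons and 1.61 and 1.29 RPKM in WT motor neurons. The WT values lay inside the SMA range in both regions. Pllp was at 104 and 77.4 RPKM in SMA white matter, 96.9 and 68.2 RPKM in WT white matter, 4.19 and 3.50 RPKM in SMA motor neurons and 1.48 and 3.57 RPKM in WT motor neurons. The genotypes overlapped in both regions here too. Ugt8a differed between regions by 4.71 ± 0.38 in SMA and 4.93 ± 0.38 in WT, and Pllp by 4.23 ± 0.36 in SMA and 4.61 ± 0.36 in WT (log2 scale, SE; limma adjusted p between 3.44e-05 and 8.41e-05).

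Enpp6 encodes a choline-specific phosphodiesterase that is switched on as oligodendrocytes begin to differentiate and falls again in older cells. It was at 64.7 and 72.3 RPKM in SMA white matter, 41.8 and 62.2 RPKM in WT white matter, 1.43 and 1.18 RPKM in SMA motor neurons and 0.745 and 0.808 RPKM in WT motor neurons. Both SMA libraries lay above both WT libraries in each region. The same held for 39.7% of all tested genes in white matter and for 12.7% in motor neurons. Enpp6 alone of the 9 was higher in replicate 2 than in replicate 1 in white matter of both genotypes. Its region difference was 4.91 ± 0.30 in SMA and 4.87 ± 0.30 in WT (log2 scale, SE; limma adjusted p = 3.1e-05 and 1.45e-05), the smallest adjusted p of the 9 genes in either genotype.

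By mean white matter RPKM the order in SMA was Mbp, Cnp, Mag, Cldn11, Pllp, Ugt8a, Enpp6, Mobp and Mog, and in WT it was the same but with Mobp above Enpp6. The lowest white matter value of Mbp lay above the highest of Cnp, and the lowest of Cnp above the highest of the 7 genes below it. From Mag to the last gene above Mog, the ranges of neighbours overlapped in both genotypes, and their order was not tested. Within single libraries, Mag lay above Cldn11 and Pllp above Ugt8a in both SMA white matter libraries. Neither order held in both WT white matter libraries. In both genotypes both values of Mog lay under both values of Mag, Cldn11, Pllp, Ugt8a and Enpp6. Its range overlapped that of Mobp, but Mog was the lower of the pair in all 4 white matter libraries. The mean ± SD (n = 2) of Mbp was 1864 ± 908 RPKM in SMA white matter and 1399.9 ± 792 RPKM in WT white matter, and that of Enpp6 was 68.5 ± 5.38 RPKM and 52.04 ± 14.4 RPKM in the same groups.

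Most other genes of the lineage were also higher in white matter. Of 36 other tested genes of myelin and myelinating oligodendrocytes, 26 were higher and 3 lower in white matter in SMA, and 26 were higher and 3 lower in WT (limma adjusted p under 0.05 here and below). Among the most abundant of the list were Sirt2, a deacetylase gene, at 324 to 858 RPKM in white matter and 61.7 to 83.8 RPKM in motor neurons, Plekhb1 at 105 to 214 RPKM and 13.04 to 45.5 RPKM, and Nfasc, whose product anchors the sheath beside the node, at 63.1 to 144 RPKM and 20.1 to 25.3 RPKM in the same 2 regions. Of 20 genes of newly formed oligodendrocytes, 17 were higher and 1 lower in SMA, and 16 were higher and 1 lower in WT. Bcas1, a marker of cells about to myelinate, was at 351 and 285 RPKM in SMA white matter and 242 and 226 RPKM in WT white matter. Gpr17, a receptor of the premyelinating stage, was at 91.3 to 142 RPKM in white matter and 7.98 to 15.1 RPKM in motor neurons, Tns3 at 87.6 to 129 RPKM and 5.28 to 8.87 RPKM, and the kinase gene Fyn at 88.6 to 143 RPKM and 30.8 to 38.9 RPKM in the same 2 regions. Of 17 precursor genes, 9 were higher and 1 lower in SMA, and 7 were higher and 1 lower in WT. The most abundant of them, Tmem176b, was at 78.6 to 151 RPKM in white matter and 73.8 to 93.8 RPKM in motor neurons and was not called in either genotype; nor was Cspg5, whereas Ptprz1 and Lhfpl3 were called higher in white matter in both. The median motor neuron level, as a percent of the white matter level, was 2.68 in SMA and 1.49 in WT over the 9 genes, 16.2 and 15.5 over the other myelin genes, 9.62 and 9.53 over the newly formed list, and 42.1 and 49.1 over the precursor list. These medians are descriptions, and the lists were not tested against one another.

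The transcription factors of the lineage and genes of myelin lipid metabolism were counted in the same way. Of 19 oligodendrocyte lineage transcription factors, 15 were higher in white matter in SMA and 14 in WT, and none was called lower. Olig1, Olig2, Sox8 and Sox10, the most abundant of them, were each called higher in both genotypes. Sox10, a master regulator of the lineage, was at 107 and 71.8 RPKM in SMA white matter, 56.5 and 41.0 RPKM in WT white matter, 14.7 and 8.09 RPKM in SMA motor neurons and 4.84 and 3.71 RPKM in WT motor neurons. Its SMA minus WT difference was not called in either region (limma adjusted p = 0.741 in white matter and 0.752 in motor neurons). In motor neurons the SMA minus WT difference was -0.39 for Olig2, -0.067 for Olig1 and 0.34 for Sox8 (log2 scale). Of 17 genes that make, break down or carry galactolipids and sphingolipids, 7 were higher and 1 lower in SMA, and 6 were higher and 3 lower in WT. The transfer protein gene Gltp and Lass2, the older symbol of the ceramide synthase gene Cers2, were called higher in both genotypes, and Psap and Degs1 in neither. Fa2h, which adds the hydroxyl group of myelin galactolipids and stands in both the myelin and the lipid list, was at 103 and 58.5 RPKM in SMA white matter and 78.2 and 48.4 RPKM in WT white matter. Opalin was at 0.697 RPKM or less in every library, and Mal, a proteolipid of mature myelin, was at 12.3 and 4.12 RPKM in SMA white matter and 14.5 and 3.64 RPKM in WT white matter.

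SMA was then compared with WT in white matter. None of the 9 myelin genes passed limma with Benjamini-Hochberg adjustment, and neither did any other gene (0.0% of 13948; 880 genes had an unadjusted p under 0.05, 0 of them among the 9, and limma's voom on recovered reads called 1 gene). The SMA minus WT differences on the log2 scale were 0.50 ± 0.28 for Cnp, 0.45 ± 0.49 for Mbp, 0.41 ± 0.30 for Enpp6, 0.37 ± 0.75 for Mag, 0.15 ± 0.48 for Cldn11 and 0.14 ± 0.36 for Pllp (SE). Mog, Ugt8a and Mobp were at -0.013 ± 0.61, -0.03 ± 0.38 and -0.072 ± 0.68. The adjusted p was 0.741 or more for each. The positive sign of most of them was shared with the data as a whole: 80.0% of all tested genes were higher in SMA white matter, with a median of 0.274, against a median of 0.151 over the 9. With scaling to the median of ratios, to quantiles or to the RPKM sum without Rn45s, the median of all genes moved to between -0.0203 and 0.00149, and 4 of the 9 were positive in place of 6, with Cldn11 and Pllp turning negative. The median over the 9 was then -0.18 with the median of ratios, -0.205 with quantiles and -0.208 with the sum without Rn45s. The SMA and WT libraries did not overlap for 1 of the 9, Enpp6, which was higher in SMA, against 39.7% of all tested genes not overlapping and higher in SMA. The 95% intervals ran from -0.12 to 1.12 for Cnp, from -0.26 to 1.09 for Enpp6 and from -1.61 to 1.46 for Mobp, so they covered differences in both directions.

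**Figure D2:**
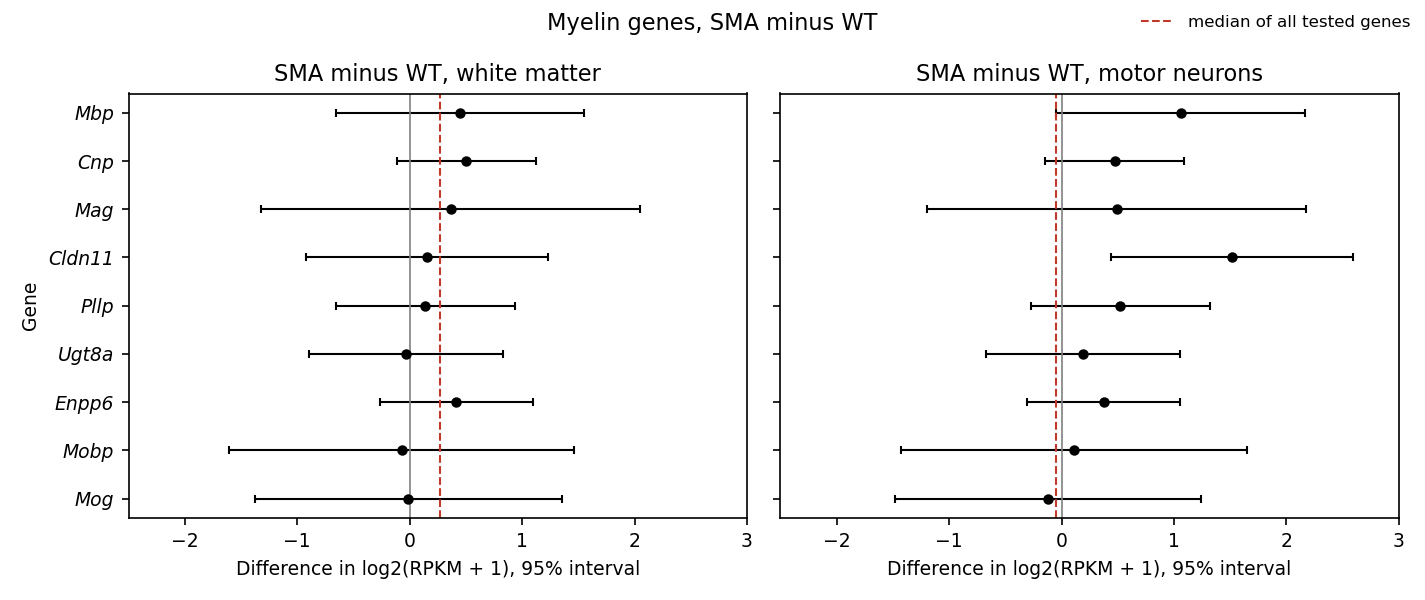
SMA minus WT difference of each myelin gene in log2(RPKM + 1), in white matter on the left and in motor neurons on the right, with its 95% limma interval (n = 2 libraries per group); the dashed line is the median of all 13948 tested genes. In white matter all 9 intervals include 0; in motor neurons that of Cldn11 runs from 0.44 to 2.59 before adjustment over all genes.

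In motor neuron captures the low levels of myelin genes were compared in the same way. None of the 9 passed (0.0% of all tested genes did; 609 had an unadjusted p under 0.05, and voom on recovered reads called 0). Cldn11 was 1.51 ± 0.48 higher in SMA (log2 scale, SE) with a limma adjusted p of 0.854, and was the single one of the 9 with an unadjusted p under 0.05. Mbp was at 1.06 ± 0.49 (log2 scale, SE), with a limma adjusted p of 1.0. The other differences were 0.52 ± 0.36 for Pllp, 0.49 ± 0.75 for Mag, 0.47 ± 0.28 for Cnp, 0.38 ± 0.30 for Enpp6, 0.19 ± 0.38 for Ugt8a, 0.11 ± 0.68 for Mobp and -0.12 ± 0.61 for Mog. Thus 8 of 9 were positive, with a median of 0.474, against a median of -0.0502 and 44.2% positive over all genes. The 3 other scalings also left 8 of 9 positive. The count was 6 without SMA motor neuron replicate 1 and 7 without SMA motor neuron replicate 2. It was 7 without WT motor neuron replicate 2 and 8 without WT motor neuron replicate 1. In the same comparison, of 36 other genes of myelin and myelinating oligodendrocytes 18 were positive, with a median of 0.000818, and of 20 genes of newly formed oligodendrocytes 11 were, with a median of 0.0966. The groups did not overlap for 4 of the 9, Mbp, Cnp, Cldn11 and Enpp6, all higher in SMA, against 12.7% of all tested genes not overlapping and higher in SMA.

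Markers of other cells moved alongside in the same captures. The summed RPKM of 16 microglia genes was 146 and 133 in SMA motor neurons and 66.2 and 75.4 in WT motor neurons. Gfap was at 23.5 and 18.2 RPKM in SMA motor neurons and 4.80 and 9.04 RPKM in WT motor neurons, whereas the sum of 16 astrocyte genes was 2410 and 938 in SMA and 1824 and 1300.0 in WT and so overlapped. The sum of 15 motor neuron genes was 3120 and 3020 in SMA and 4467 and 3556 in WT. The part that captured neighbouring tissue had in the myelin gene values was not tested. Without SMA motor neuron replicate 1, 123 of all genes passed but none of the 9, and the Cldn11 difference was 1.17 on the log2 scale. It was 1.03 without WT motor neuron replicate 2, 1.85 without SMA motor neuron replicate 2 and 1.995 without WT motor neuron replicate 1. With a pseudocount of 0.1 RPKM it was 2.67, and with voom on recovered reads 2.97.

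The difference between the SMA effect in white matter and the SMA effect in motor neurons was tested as an interaction. No myelin gene passed, nor did any other gene (0.0% of 13948; 693 genes had an unadjusted p under 0.05, 0 of them among the 9, and voom called 0). Cldn11 had the largest value at -1.36 ± 0.68, followed by Mbp at -0.61 ± 0.70 (log2 scale, SE; limma adjusted p = 0.883 and 0.897). The other 7 lay between -0.38 and 0.11.

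The 2 white matter libraries of each genotype differed in most of the myelin genes, and the order of the genes was the same in both but for Ugt8a. In SMA white matter, replicate 1 over replicate 2 was 3.48 for Mobp, 3.43 for Mog, 3.04 for Mag, 2.05 for Mbp, 2.01 for Cldn11, 1.53 for Cnp and 1.34 for Pllp. In WT white matter the same ratios were 3.90 for Mobp, 3.04 for Mog, 2.93 for Mag, 2.33 for Mbp, 1.86 for Cldn11, 1.45 for Cnp and 1.42 for Pllp. Mobp, Mog and Mag thus differed by about 3-fold between libraries of 1 genotype, and Cnp and Pllp by far less. Ugt8a was at 1.55 in SMA and 0.892 in WT, and Enpp6 was lower in replicate 1, at 0.895 in SMA and 0.672 in WT. The ratio of Mog to Enpp6 was 0.627 and 0.164 in the SMA libraries and 0.922 and 0.204 in the WT libraries. Replicate 1 held about the same number of genes at 1 RPKM as replicate 2 in each genotype, 12796 and 12782 in SMA and 12406 and 12257 in WT.

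**Figure D3:**
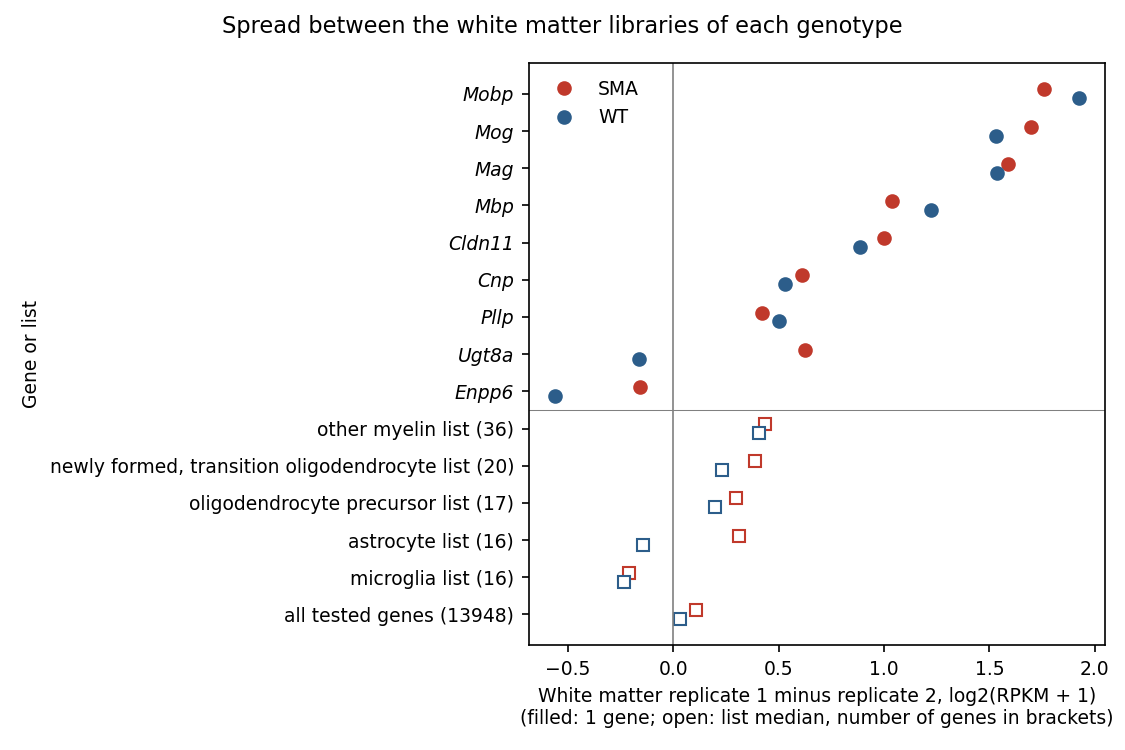
White matter replicate 1 minus replicate 2 in log2(RPKM + 1), red for SMA and blue for WT; filled circles are single myelin genes and open squares are medians of gene lists, with the number of genes in brackets. Mobp lies at 1.76 and 1.92 and Enpp6 at -0.16 and -0.56 in SMA and WT, while the medians of all tested genes lie at 0.107 and 0.0315.

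Over the 9 genes the median of this difference was 1.0 in SMA and 0.884 in WT on the log2 scale, with 8 and 7 of the 9 higher in replicate 1, against medians of 0.107 and 0.0315 and 59.4% and 52.5% of all tested genes. The other myelin genes had medians of 0.436 in SMA and 0.405 in WT, the newly formed oligodendrocyte list 0.386 and 0.231, and the precursor list 0.297 and 0.199. Lineage transcription factors were at 0.454 and 0.227, and the galactolipid and sphingolipid list at 0.293 and -0.0634. A shift of like size was seen outside the lineage: the motor neuron list was at 0.381 and 0.292, with 13 of 15 genes higher in replicate 1 in each genotype. Microglia genes went the other way, at -0.208 and -0.233, and astrocyte genes differed in sign, at 0.313 and -0.144. Of 4682 tested genes with a mean of at least 10 RPKM in white matter, 5 (0.107%) were at least 3-fold higher in replicate 1 in both genotypes, a threshold chosen after the values were seen. Mobp, Mog, the iron carrier gene Trf and Xist were among them. Trf was at 55.5 and 9.56 RPKM in SMA white matter and 26.8 and 7.40 RPKM in WT white matter. The part that sex, which moves with the replicate number, had in this spread was not tested.

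Set within a replicate number, the genotypes lay closer together than the replicates did for Mbp, Mag, Mog, Mobp, Cldn11 and Pllp. This was not clear for Cnp, Ugt8a or Enpp6. SMA over WT in white matter was 1.28 and 1.45 for Mbp, 1.31 and 1.27 for Mag, 1.05 and 0.930 for Mog, 0.898 and 1.01 for Mobp and 1.16 and 1.07 for Cldn11 in replicates 1 and 2. It was 1.46 and 1.38 for Cnp, 1.55 and 1.16 for Enpp6, 1.07 and 1.14 for Pllp and 1.29 and 0.742 for Ugt8a. These ratios include the shift of SMA white matter as a whole given above. The numbers do not pair animals in the labels, and these ratios are descriptions without a test.

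Lists of other cell types placed the captures. Between regions, 16 of 16 microglia genes were called higher in white matter in SMA and 15 in WT, among them C1qb, C1qc and Tyrobp. Of 16 astrocyte genes, 13 were called higher in SMA and 12 in WT, with Aqp4 and Id3 called in both genotypes, Fabp7 past the threshold in SMA but not in WT, and Aldoc in neither. Of 15 motor neuron genes, 14 were called lower in white matter in SMA and 15 in WT, among them Nefm, Nefl, Slc18a3 and Prph. No gene of any list passed the interaction test, so none of these calls was shown to differ between genotypes. In SMA minus WT no gene of any list was called in either region.

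The genes outside the 9 with the most similar profile were found by the root mean square distance, over the 8 libraries, between log2(RPKM + 1) values centred on each gene's mean and the mean profile of the 9. Among the 10 nearest were Gm98, the older symbol of Myrf, at a distance of 0.335, Fa2h at 0.338, Adamts4 at 0.431, Bcas1 at 0.436, Plxnb3 at 0.45, Mir1897 at 0.469, Cnksr3 at 0.531, Sox2ot at 0.618 and Rnf122 at 0.62. The 9 genes themselves, which made the mean, lay between 0.379 for Ugt8a and 0.833 for Mag, and the median of all tested genes was 2.48. Gm98 was at 71.5 and 52.6 RPKM in SMA white matter, 50.8 and 32.9 RPKM in WT white matter, 1.44 and 1.41 RPKM in SMA motor neurons and 1.41 and 1.07 RPKM in WT motor neurons. Gm98 thus differed between the white matter replicates by less than Mog, Mobp and Mag did. Mir1897 is a microRNA gene, and in libraries of longer fragments its value can hold reads of another transcript. Adamts4, a protease gene, was at 35.8 and 19.4 RPKM in SMA white matter, 28.6 and 15.9 RPKM in WT white matter and 0.517 RPKM or less in motor neurons.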

How the data were processed

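Total RNA of laser-captured lumbar cord was amplified with NuGEN kits and sequenced. For each library the authors deposited RPKM values of 23278 gene symbols. The submitters' processing notes name TopHat, bedtools, DESeq and the build mm9. Tool versions, the annotation, strandedness and how multi-mapped reads were counted are not given in the labels. All 8 libraries were used as deposited, on the authors' scale.

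Reads were recovered from the RPKM steps, since the values of a gene are whole multiples of what 1 read is worth. All 17431 genes above 0 in at least 3 libraries gave whole reads (tolerance 0.002 reads), and the lengths found matched RefSeq for 95.1% of 408 small RNA genes. Per library 58.8 to 84.4 M reads fell on genes, and a single read over 1 kb stood for 0.00972 to 0.0129 RPKM.

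Differences were tested with limma 3.58.1 in R 4.3.3 on log2(RPKM + 1), with 4 group means fitted to all 8 libraries, eBayes with trend, two-sided p-values and Benjamini-Hochberg adjustment at 0.05 over the 13948 genes with at least 1 RPKM in at least 2 libraries. In each comparison the difference is SMA minus WT, or white matter minus motor neurons. Tested on simulated data with 200 changed genes of 13948, the model called, for SMA minus WT in white matter, 1.64% of those with a log2 change of 1, 49.6% of those with 2 and 88.8% of those with 4. For SMA minus WT in motor neurons these shares were 2.99, 53.9 and 93.2%. Alternatives were another pseudocount of 0.1, 2 other filters, 3 other scalings, limma without trend, limma on the 4 compared libraries, voom on recovered reads, a replicate block and leaving out each library.

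The 9 genes and all gene lists were chosen with earlier results of these data known. The named genes were the 9, Smn1, the 4 most highly expressed genes of each list, and the 10 genes of most similar profile. Defining markers of each cell type were also named, and Trf, Xist, Mal and Opalin were named after their values were seen. Some genes that the rule picks are not reported here. Myrf, Zfp24, Cers2 and Ncmap were matched through older symbols. Promoters came from RefSeq tables of build GRCm38.p6, which is not the build of the files. Read recovery and figures were made in Python 3.11.15 (numpy 2.4.6, pandas 2.3.3, scipy 1.17.1, matplotlib 3.10.9).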

Additional observations from a re-analysis of the deposited data

How the results depend on the processing

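All 9 myelin genes were called higher in white matter in both genotypes in each of the 18 alternatives, at log2 differences of 3.63 to 10.4 in SMA and 3.61 to 7.7 in WT and adjusted p of 0.0406 or less (limma). None of the 9 was called in SMA minus WT or in the interaction in any alternative, where the smallest adjusted p was 0.276. Counts of all genes called moved more: between 2272 without SMA white matter replicate 1 and 5539 without SMA motor neuron replicate 1 for the SMA regions (4295 as reported), between 2015 without WT motor neuron replicate 1 and 5333 without SMA motor neuron replicate 2 for the WT regions (3967 as reported), up to 123 for SMA minus WT in motor neurons and up to 17 for the interaction, both without SMA motor neuron replicate 1. The share of calls that were higher in white matter was 55.8% in SMA and 34.6% in WT as reported, 48.3% and 48.3% with quantile normalization, 46.2% and 44.4% with median-of-ratios scaling and 58.9% and 55.8% with the RPKM sum without Rn45s. With a replicate block, 9 and 9 of the myelin genes were called between regions and 0 in the other comparisons, and 4138 genes were called between the SMA regions and 3848 between the WT regions; it changed no call of the 9. Across genes, the deviations of same-numbered libraries correlated at 0.0123 to 0.0742 between the groups compared directly. The correlation was 0.0805 between SMA white matter and WT motor neurons and -0.343 between WT white matter and SMA motor neurons. Such correlations cannot show whether same-numbered libraries share an animal. The main fit had no replicate block because the labels do not say that a number marks 1 animal. Signs turned for differences that had not passed. In SMA minus WT in white matter, Cldn11 was at -0.20, -0.18 and -0.21 and Pllp at -0.27, -0.19 and -0.22 with quantile normalization, median-of-ratios scaling and the sum without Rn45s. Under these same 3 scalings the interaction was -0.27, -0.23 and -0.25 for Mog, -0.40, -0.34 and -0.33 for Cnp and -0.42, -0.30 and -0.30 for Enpp6. With a pseudocount of 0.1 RPKM it was 0.053 for Mag and -0.26 for Enpp6, and with voom 0.28 and -0.33. Leaving out each library in turn gave SMA minus WT ranges in white matter of -0.16 to 1.06 for Mbp, -0.43 to 1.16 for Mag, -0.86 to 0.84 for Mog, -1.03 to 0.89 for Mobp, -0.35 to 0.65 for Cldn11, -0.34 to 0.28 for Ugt8a and -0.11 to 0.39 for Pllp. In motor neurons the ranges were -0.57 to 1.55 for Mag, -0.24 to 0.46 for Mobp and -0.33 to 0.72 for Ugt8a. For the interaction they were -1.19 to 0.94 for Mag, -0.74 to 0.96 for Mog, -1.14 to 0.78 for Mobp, -0.28 to 0.33 for Cnp, -0.75 to 0.30 for Ugt8a, -0.83 to 0.059 for Pllp and -0.24 to 0.32 for Enpp6. The cause of these turns was not tested. With 1 library left in a group, that library is assumed to vary like the others. Groups of 2 also limit precision: in the simulated data few differences of a log2 of 1 were recovered.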
